A study of Mus musculus with 6 samples.

Results

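Scavenger receptors are cell-surface proteins that bind modified lipoproteins, dying cells, microbes and other polyanionic or lipid ligands and carry them into the cell. The 9 genes described here are Cd36, which the series names in its title, and Scarb1, Scarb2, Msr1, Marco, Olr1, Stab1, Cd163 and Colec12. They were taken by exact gene name from a table of 30587 rows, and each of the 9 has 1 row. RNA was sequenced from dendritic cells grown from bone marrow of C57BL/6 mice. The KO group (3 libraries) came from CD11c-Cre;Hif2afl/fl mice, in which Cre under the CD11c promoter recombines floxed alleles of Hif2a, the gene of the transcription factor subunit HIF-2α (official symbol Epas1). The WT group (3 libraries) came from Hif2afl/fl mice, so it carries the same floxed alleles without Cre. Both groups had received dimethyloxalylglycine (DMOG), which blocks prolyl hydroxylases and so keeps HIF α subunits from being degraded, for 24 h, and then the glycolipid α-galactosylceramide for 4 h. No untreated cells were analysed here, so values describe KO against WT under both agents.

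Scavenger receptors are grouped into classes by structure. The class B members Cd36, Scarb1 and Scarb2 encode related proteins that cross the membrane at both ends. CD36 takes up oxidised lipoproteins and long-chain fatty acids and binds thrombospondin, SR-BI (Scarb1) exchanges cholesterol with high-density lipoprotein, and LIMP-2 (Scarb2) is a protein of the lysosomal membrane. The class A members Msr1, Marco and Colec12 encode trimers with a collagen-like stalk that bind modified lipoprotein and microbes. Of the rest, Olr1 encodes the lectin-like receptor LOX-1 for oxidised lipoprotein, Stab1 encodes stabilin-1, which clears modified proteins and matrix fragments, and Cd163 encodes the receptor for haptoglobin-haemoglobin complexes. In macrophages and dendritic cells such uptake feeds lipid storage and antigen processing.

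Total counts ran from 16826800 to 17884160 in KO and from 14668641 to 17041448 in WT libraries, and 13249 rows had enough reads for a test. Epas1, the targeted gene (chromosome 17, 86753700 to 86833410, plus strand, mm10), had 175, 214 and 198 reads in KO, against 339, 352 and 349 reads in WT (log2 fold change -0.98 ± 0.12 SE, edgeR adjusted p = 3.45e-05). Reads from exons outside the floxed part count towards Epas1, so the reads left do not measure how many cells kept the gene. The dendritic cell genes Itgax, Flt3, Zbtb46 and Cd74 were present in both genotypes, at 179, 74.8, 43.1 and 2190 CPM (read counts scaled to library size) in KO and 205, 63.6, 30.4 and 2697 CPM in WT on average. Other dendritic cell genes were low. Clec10a, Clec9a and Xcr1 had 5.47, 3.31 and 1.96 CPM in KO and 7.85, 3.21 and 0.747 CPM in WT. Cd209a was near 0 at 0.327 CPM in KO and 0.257 CPM in WT. The macrophage genes Csf1r and Adgre1 were present too, at 1482 and 326 CPM in KO and 1446 and 299 CPM in WT. WT 2 had a read in 25408 rows, against 18763 to 22275 rows in the other libraries, and KO 1 had the next highest number. Fold changes below are KO over WT, ± is the SE for a log2 fold change and the SD over 3 libraries for a level, and a gene is called changed at an adjusted p under 0.05 in the edgeR quasi-likelihood test. As the material is bulk RNA, fewer cells of a type and less RNA per cell cannot be told apart.

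Per kilobase of exon, Cd36 was by far the most abundant of the 9 genes in these cells and Cd163 was close to absent. Cd36 stood at 190 ± 25.0 CPM per kb in KO and 167 ± 1.59 CPM per kb in WT. Msr1 came next at 46.9 ± 3.49 CPM per kb in KO and 39.6 ± 0.125 CPM per kb in WT. Scarb2 followed at 40.4 ± 2.14 CPM per kb in KO and 37.8 ± 1.25 CPM per kb in WT. Msr1 lay above Scarb2 in every library of each genotype, though in WT the lowest Msr1 value was 39.4 and the highest Scarb2 value 39.3 CPM per kb.

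Per kilobase of exon, the order of Stab1 and Scarb1 differed between the genotypes. In KO, Stab1 (14.4 to 14.8 CPM per kb) lay above Scarb1 (9.74 to 12.1 CPM per kb) in all 3 libraries, whereas in WT, Stab1 (11.2 to 12.4 CPM per kb) lay below Scarb1 (13.9 to 15.3 CPM per kb) in all 3. The lower part of the order was the same in both genotypes. Olr1 had 6.00 ± 0.328 CPM per kb in KO and 5.87 ± 0.605 in WT, and Marco had 2.64 ± 0.192 in KO and 2.08 ± 0.149 in WT. Colec12 had 0.643 ± 0.0894 CPM per kb in KO and 0.881 ± 0.0227 in WT. These levels divide by the length of all annotated exons merged, so a gene whose long isoforms are not used appears too low. There were 0.975, 1.01 and 0.979 Stab1 reads per Scarb1 read in WT 1, 2 and 3. The order of these genes in WT therefore rests on their merged exon lengths, 10288 bases for Stab1 and 8500 for Scarb1.

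**Figure D1:**
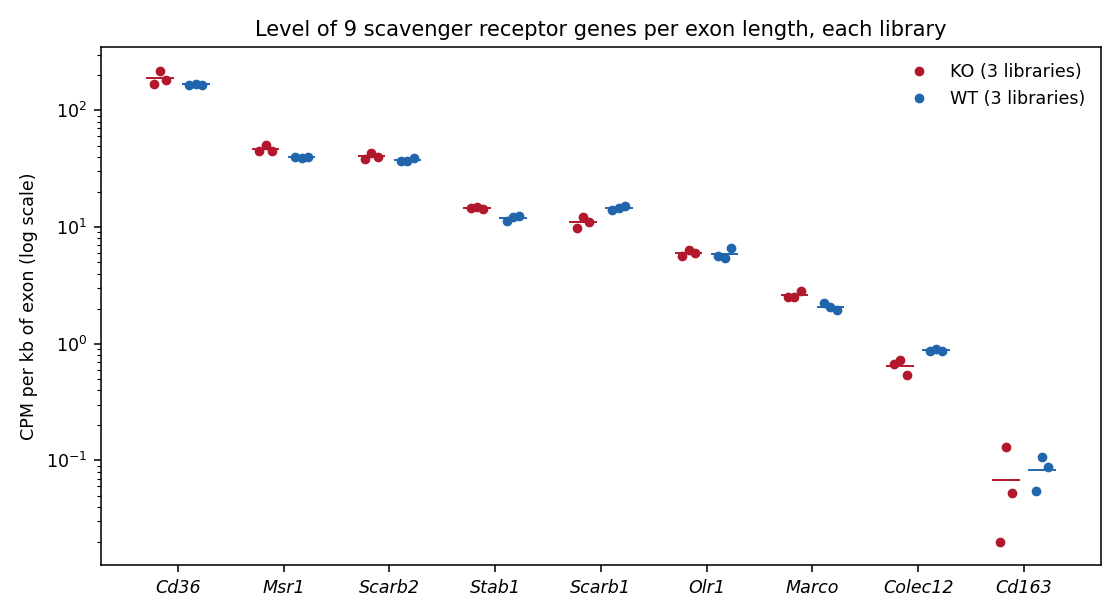
Level of each of the 9 genes in CPM per kb of merged exon (log axis), with 1 point per library, KO left of WT, and a bar at the mean of 3 libraries. Cd36 stands highest at 190 in KO and 167 in WT, and on this per-length scale Stab1 and Scarb1 change places between the genotypes.

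Against WT, the KO cells had more Msr1 and Stab1 RNA and less Scarb1 and Colec12 RNA, all by less than 1.5-fold. Cd36 itself was 1.14-fold higher but did not pass the test, nor did Marco, Scarb2 or Olr1. Of the 9 genes, 8 had enough reads for a test, and of these 2 rose and 2 fell. Of all 13249 rows tested, 25.8% were called, 13.8% as higher and 12.0% as lower. Both genotypes were free of overlap in 6 of the 8 genes (4 with KO above, 2 with KO below), against 40.4% of all rows tested. The median log2 fold change of the 8 genes was 0.14, and that of all rows tested was -0.01. The number that rose was 1 without WT 1 and 1 without KO 2. The number that fell was 1 when WT 1, WT 2, WT 3 or KO 3 was left out, with no low-count filter, with the DESeq2 Wald test, and without both WT 2 and KO 1. With 3 libraries a side an exact permutation test cannot go below p = 0.10, and the p-values given are those of the model.

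**Figure D2:**
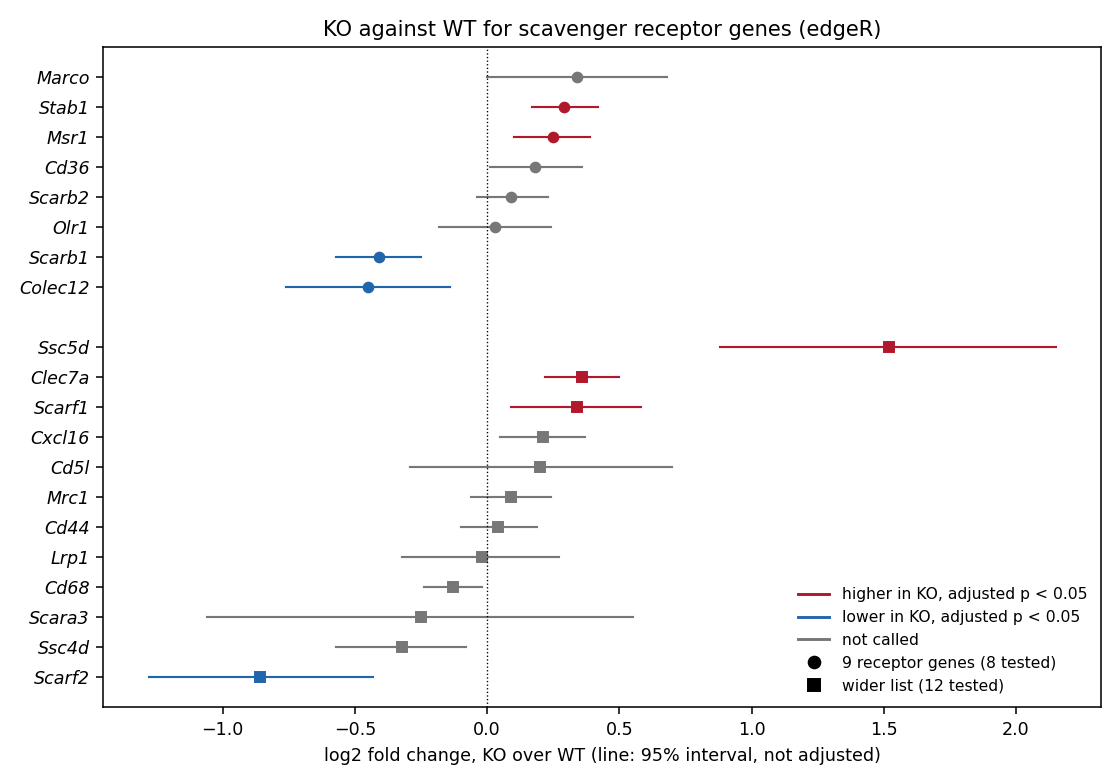
Log2 fold change of KO over WT with its unadjusted 95% interval for the 8 tested receptor genes (circles, top block) and 12 tested genes of a wider scavenger receptor list (squares), coloured by call. Stab1 and Msr1 lie to the right of 0 and Scarb1 and Colec12 to the left, with the interval of Cd36 running from 0.01 to 0.36.

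Cd36 (ENSMUSG00000002944.15, chromosome 5, 17781690 to 17888801, minus strand, mm10) had 11135, 13218 and 11254 reads in KO 1, 2 and 3, against 10089, 9366 and 8746 reads in WT 1, 2 and 3. After scaling these were 610, 783 and 653 CPM in KO, against 597, 606 and 596 CPM in WT. The KO libraries all lay above the WT libraries, KO 1 by only a few CPM, and the spread within KO (SD 89.9 CPM) was far wider than within WT (SD 5.70 CPM). The log2 fold change was 0.18 ± 0.08, with an unadjusted 95% interval of 0.01 to 0.36 (edgeR adjusted p = 0.11). Without KO 2 it was 0.08 and did not pass. It passed without KO 1 (0.26), with offsets for GC content and exon length (0.26), with no filter on low counts (0.20), and without both WT 2 and KO 1 (0.27).

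The Cd36 gene has 6 annotated transcript starts spread over 53.1 kb, and the deposited count adds up reads of every isoform, so use of one start over another cannot be seen. RefSeq places a start at 17835896, 179 bases from the nearest of those in GENCODE. Promoter windows ran from 250 bases before to 50 bases after the RefSeq start (RefSeq, GRCm38.p6, the mm10 assembly). They were used for 6 of the 9 genes, Cd36, Scarb2, Marco, Olr1, Stab1 and Cd163. The windows of Cd36, of its class B relative Scarb2 and of Stab1, which rose, are shown to set the gene of the title beside a relative and a called gene. All are on the minus strand and read 5′ to 3′. Capitals mark a 16-base stretch that stands in tandem in 2 copies in Cd36 and a TGACNNNGC match in Scarb2.
Cd36, chr5:17835847-17836146: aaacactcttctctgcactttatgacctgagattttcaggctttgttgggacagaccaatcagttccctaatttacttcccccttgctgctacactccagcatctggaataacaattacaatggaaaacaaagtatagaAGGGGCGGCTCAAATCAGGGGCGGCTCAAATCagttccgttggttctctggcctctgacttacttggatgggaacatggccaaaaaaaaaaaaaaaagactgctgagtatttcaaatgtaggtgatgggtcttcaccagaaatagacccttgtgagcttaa
Scarb2, chr5:92505608-92505907: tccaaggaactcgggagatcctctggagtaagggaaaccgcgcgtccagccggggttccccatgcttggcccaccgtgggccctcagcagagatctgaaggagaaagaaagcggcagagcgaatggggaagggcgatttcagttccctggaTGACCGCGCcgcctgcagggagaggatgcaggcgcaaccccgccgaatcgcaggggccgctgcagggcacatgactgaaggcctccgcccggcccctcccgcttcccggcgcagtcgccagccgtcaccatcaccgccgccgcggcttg
Stab1, chr14:31168592-31168891: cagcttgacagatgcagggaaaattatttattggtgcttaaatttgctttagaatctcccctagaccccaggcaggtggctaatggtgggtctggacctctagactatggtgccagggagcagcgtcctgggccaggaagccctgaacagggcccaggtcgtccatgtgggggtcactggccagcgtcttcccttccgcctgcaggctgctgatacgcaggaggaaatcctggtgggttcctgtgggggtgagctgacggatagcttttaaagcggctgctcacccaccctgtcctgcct

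The windows of these 6 genes were searched on both strands for 5 motifs, which may overlap one another. No window was available for Scarb1 or Msr1. The window of Colec12, a called gene, was left out of the search, so its motifs were not examined. The HIF core letters ACGTG and GCGTG occur in 19.6% and 32.4% of the 32851 RefSeq windows of the same length. Among the 6 genes, ACGTG was matched once, in Cd163, 30 bases after the start, and GCGTG in none. The PPAR direct repeat, AGGTCA written again after a gap of 1 base, was present in 0.0396% of windows. It and the interferon-response core, GAAA written again after a gap of 2 bases and present in 3.44%, were matched in none of the 6. The NRF2 core TGACNNNGC, present in 12.4% of windows, was matched once, in Scarb2, 99 bases before the start. A window without a match says only that these letters are not in these 300 bases.

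Scarb1 (ENSMUSG00000037936.15, chromosome 5, 125277087 to 125341094, minus strand, mm10) showed the opposite direction within class B. It had 1511, 1740 and 1633 reads in KO, against 2003, 1907 and 1911 reads in WT, which is 82.8, 103 and 94.7 CPM in KO and 118, 123 and 130 CPM in WT. No KO library reached the lowest WT library. Scarb1 fell 1.33-fold, with a log2 fold change of -0.41 ± 0.07 (edgeR adjusted p = 0.00133), and kept its call under all 16 alternative settings, between -0.48 and -0.33. Scarb2 (ENSMUSG00000029426.8, chromosome 5, 92441314 to 92506833, minus strand, mm10) had 243, 269 and 249 CPM in KO, against 233, 234 and 247 CPM in WT. The genotypes overlapped, since WT 3 lay above KO 1. The fitted difference was 0.09 ± 0.06 on the log2 scale (edgeR adjusted p = 0.317). Its unadjusted 95% interval was -0.04 to 0.23, or 0.969-fold to 1.18-fold of WT, and so includes no change.

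Msr1 (ENSMUSG00000025044.16, chromosome 8, 39581685 to 39642673, minus strand, mm10), encoding the founding class A receptor, had 5184, 5455 and 4920 reads in KO, against 4242, 3864 and 3692 reads in WT. In CPM these were 284, 323 and 285 in KO and 251, 250 and 252 in WT. All KO libraries lay above all WT libraries, and the WT values were within 2 CPM of each other. Msr1 rose 1.19-fold, with a log2 fold change of 0.25 ± 0.07 (edgeR adjusted p = 0.0167). Without KO 2 the log2 fold change was 0.18, and without WT 1 it was 0.25, and Msr1 passed in neither.

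Marco (ENSMUSG00000026390.7, chromosome 1, 120474538 to 120505024, minus strand, mm10) was expressed far lower, with 89, 82 and 95 reads in KO, against 73, 61 and 55 reads in WT. Its CPM were 4.88, 4.86 and 5.51 in KO and 4.32, 3.95 and 3.75 in WT, again without overlap. The log2 fold change of 0.34 ± 0.16 was larger than that of Msr1, but with so few reads its error was wider and it did not pass (edgeR adjusted p = 0.133). Marco passed under none of the 16 alternative settings, with values between 0.28 and 0.41.

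Colec12 (ENSMUSG00000036103.9, chromosome 18, 9707595 to 9882644, plus strand, mm10), the class A receptor with a C-type lectin domain, went the other way. It had 106, 106 and 82 reads in KO, against 127, 122 and 112 reads in WT, or 5.81, 6.28 and 4.75 CPM in KO and 7.51, 7.90 and 7.64 CPM in WT. All KO libraries lay below all WT libraries. Colec12 fell 1.37-fold, with a log2 fold change of -0.45 ± 0.14 (edgeR adjusted p = 0.0345). It did not pass without WT 1 (-0.46), WT 2 (-0.43), WT 3 (-0.45) or KO 3 (-0.35), with no low-count filter (-0.44), with the DESeq2 Wald test (-0.45), or without both WT 2 and KO 1 (-0.46).

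Stab1 (ENSMUSG00000042286.13, chromosome 14, 31139013 to 31168641, minus strand, mm10) had 2736, 2567 and 2556 reads in KO, against 1952, 1924 and 1870 reads in WT. After scaling it had 150, 152 and 148 CPM in KO and 115, 125 and 128 CPM in WT, with the KO libraries the more alike. Stab1 rose 1.23-fold, with a log2 fold change of 0.29 ± 0.06 (edgeR adjusted p = 0.00256), and kept its call under all 16 alternative settings. With offsets for GC content and exon length its log2 fold change was 0.16. A stretch of 112 bases of its exons is shared with Nt5dc2 on the other strand, and whether counting used strand is not given in the sources used here.

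Olr1 (ENSMUSG00000030162.14, chromosome 6, 129485244 to 129507165, minus strand, mm10) had 20.2, 22.6 and 21.5 CPM in KO, against 20.0, 19.5 and 23.5 CPM in WT, and the genotypes overlapped. The difference on the log2 scale was 0.03 ± 0.10 (edgeR adjusted p = 0.847), with an unadjusted 95% interval of -0.18 to 0.24. Cd163 (ENSMUSG00000008845.9, chromosome 6, 124304656 to 124330527, plus strand, mm10) had 2, 12 and 5 reads in KO, against 5, 9 and 7 reads in WT. With 19 reads over the KO libraries and 21 over the WT libraries it did not pass the count filter and was not tested, and a difference was not detectable at this depth.

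**Figure D3:**
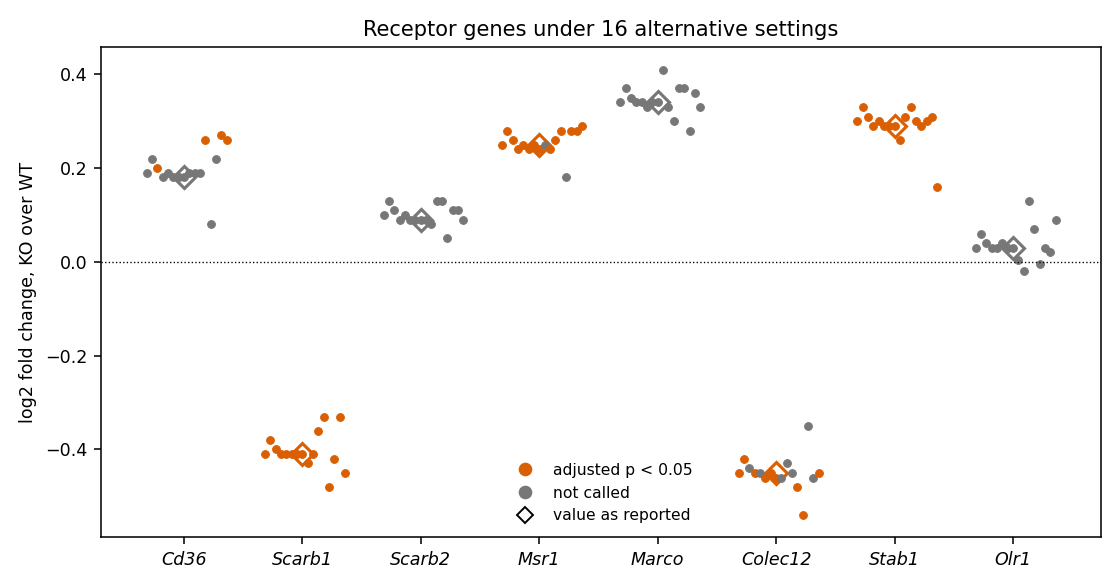
Log2 fold change of KO over WT for the 8 tested receptor genes as reported (diamonds) and under 16 alternative settings (dots), in orange where the adjusted p was under 0.05. Scarb1 and Stab1 are orange throughout, Cd36 ranges from 0.08 to 0.27 and Colec12 from -0.54 to -0.35 with mixed calls.

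Ratios of reads within a library do not depend on how libraries are scaled. There were 7.37, 7.60 and 6.89 Cd36 reads per Scarb1 read in KO 1, 2 and 3, against 5.04, 4.91 and 4.58 in WT 1, 2 and 3. The 2 class B genes therefore stood farther apart in each KO library than in any WT library. Stab1 had 1.81, 1.48 and 1.57 reads per Scarb1 read in KO, against 0.975, 1.01 and 0.979 in WT. Msr1 had 48.9, 51.5 and 60.0 reads per Colec12 read in KO, against 33.4, 31.7 and 33.0 in WT. Each of these pairs sets a gene that lay higher in KO against one that lay lower, so their parting follows from those levels. By contrast, Cd36 reads per Msr1 read were 2.15, 2.42 and 2.29 in KO and 2.38, 2.42 and 2.37 in WT, with overlap. Overlap was also seen within class B for Cd36 reads per Scarb2 read (2.51 to 2.91 in KO, 2.42 to 2.60 in WT). Within class A, Msr1 reads per Marco read overlapped too (51.8 to 66.5 in KO, 58.1 to 67.1 in WT). Scarb2 reads per Scarb1 read did not overlap (2.61 to 2.94 in KO, 1.89 to 1.96 in WT). Cd36 reads were 43.5% to 47.0% of the reads of the 9 genes in KO and 43.0% to 44.3% in WT. The ratios are given as descriptions, with no test.

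**Figure D4:**
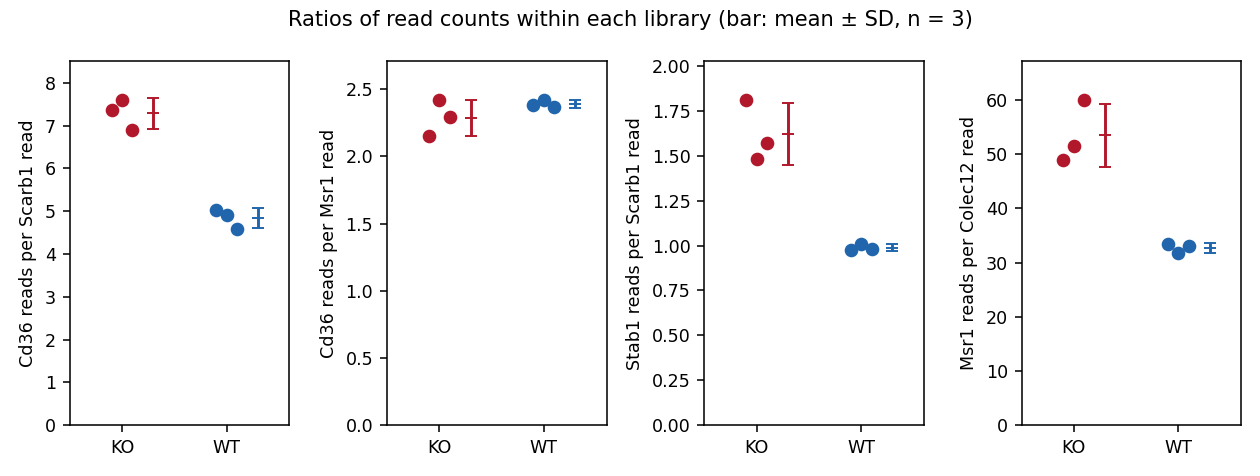
Ratios of raw read counts of 2 genes within each library, KO left of WT, with 1 point per library and the mean ± SD of 3 beside them. The Cd36 to Scarb1, Stab1 to Scarb1 and Msr1 to Colec12 ratios do not overlap between genotypes, while Cd36 to Msr1 lies between 2.15 and 2.42 in all 6 libraries.

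Within KO, most receptor genes were highest in the same library, some by little. KO 2 held the highest KO value of 8 of the 9 genes, with Marco as the exception, whereas KO 2 was the highest KO library in 35.3% of all rows tested. Cd163, among the 8, was not itself tested. Stab1 was nearly level at 150, 152 and 148 CPM in KO 1, 2 and 3, and Colec12 had 106 reads in both KO 1 and KO 2. The genes whose pattern over the 6 libraries lay closest to that of Cd36, among 5209 others whose mean log2 CPM was 5 or more, were Stap1, Foxo4, Cd180, Rasgef1b and Pik3cd. Likeness was the root mean square distance between log2 CPM centred on each gene's own mean, which was 0.036 for Stap1 and 0.045 for Pik3cd, against a root mean square of 0.139 for Cd36 about its own mean. Cd180, encoding a Toll-like receptor relative, had 149, 198 and 166 CPM in KO, against 143, 148 and 155 CPM in WT. Pik3cd, encoding a catalytic subunit of phosphoinositide 3-kinase, was the only one of the 5 called (log2 fold change 0.22 ± 0.07, edgeR adjusted p = 0.0339). It did not pass without WT 1 (0.23), WT 2 (0.21), KO 2 (0.15) or KO 3 (0.23), nor with offsets for GC and length (0.11). Without KO 1, Stap1 (0.25), Foxo4 (0.30) and Cd180 (0.29) passed. Without KO 2 the values were 0.12 for Stap1, 0.16 for Foxo4, 0.09 for Cd180 and 0.05 for Rasgef1b, against 0.19, 0.24, 0.20 and 0.15 with all libraries, and none of these passed. The 5 genes were chosen for their likeness to Cd36 over these same libraries. Their high value in KO 2 and their shifts without KO 1 or KO 2 therefore follow from that choice.

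**Figure D5:**
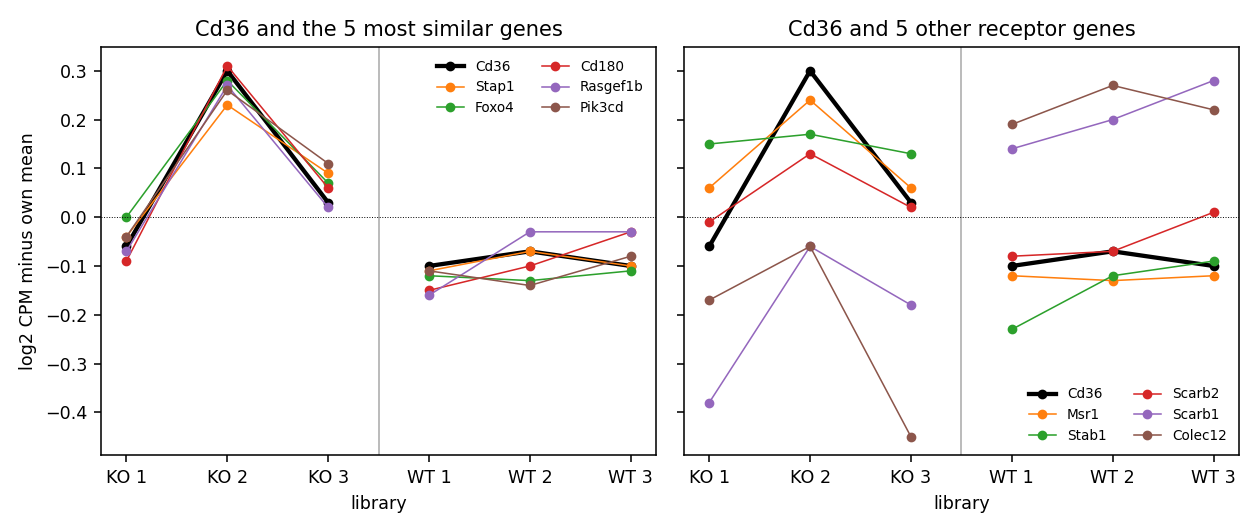
Log2 CPM of each gene minus its own mean over 6 libraries, for Cd36 with the 5 most similar genes (left) and with 5 other receptor genes (right), where lines join libraries of a genotype and carry no order. KO 2 is the highest library for Cd36 (0.30) and for each of the 5 similar genes, which were chosen for this likeness. Scarb1 and Colec12 lie above 0 in WT and below 0 in KO.

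Other receptors of the scavenger classes went both ways as well. Of 22 further genes listed, 20 had a row and 12 enough reads for a test, and 3 rose and 1 fell, which is 33.3% of those tested, beside 25.8% of all rows, with a median log2 fold change of 0.07. Clec7a, encoding the β-glucan receptor dectin-1, had 864, 1031 and 943 CPM in KO, against 735, 736 and 733 CPM in WT, and rose by a log2 fold change of 0.36 ± 0.06 (edgeR adjusted p = 0.00109). Ssc5d, encoding a soluble scavenger protein, rose to 2.32 ± 0.225 CPM in KO, against 0.811 ± 0.251 CPM in WT (log2 fold change 1.52 ± 0.29). Scarf1, an endothelial scavenger receptor gene also used by phagocytes, rose by 0.34 ± 0.11, but did not pass without WT 1 (0.23), KO 2 (0.27) or KO 3 (0.40), nor with offsets for GC and length (0.29). Scarf2, its relative, fell by 0.86 ± 0.20 on the log2 scale, to 4.18 ± 1.08 CPM in KO, against 7.62 ± 1.25 CPM in WT. The abundant genes Lrp1 and Cd68 had 1448 and 1328 CPM in KO, against 1473 and 1453 CPM in WT, and did not pass.

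The list of thrombospondin genes had the largest median log2 fold change of the 9 gene lists other than cell markers. It was drawn up by gene family, and which of its products bind CD36 was not examined here. Of 5 listed, 3 were tested and 2 rose (66.7%, beside 25.8% of all rows called), with a median log2 fold change of 1.70. Thbs1, encoding thrombospondin-1, had 2922, 3092 and 2969 CPM in KO, against 897, 868 and 1002 CPM in WT, a 3.25-fold rise (log2 fold change 1.70 ± 0.06, edgeR adjusted p = 3.05e-10). Thbs4 rose 3.75-fold, to 4.49 ± 0.383 CPM in KO, against 1.20 ± 0.203 CPM in WT. Both kept their call under all 16 alternative settings.

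Partners and kinases that act with CD36 at the membrane were split. Of 22 tested, 5 rose and 5 fell (45.5% called, beside 25.8% of all rows). The median log2 fold change was -0.00, against -0.01 over all rows. The tetraspanin genes Cd81 and Cd9, whose products sit with CD36 in the membrane, fell 1.58-fold and 1.52-fold, Cd9 having 486, 486 and 490 CPM in KO, against 758, 745 and 718 CPM in WT (edgeR adjusted p = 3.51e-06). The kinase gene Fyn rose 1.77-fold, to 65.9 ± 7.35 CPM in KO, against 37.2 ± 3.35 CPM in WT. Vav3, for an exchange factor downstream of it, rose 1.28-fold, and Tlr2, for a Toll-like receptor that works with CD36 on bacterial lipid, rose 1.21-fold. Ptk2b, for a focal adhesion kinase relative, fell 1.18-fold, but did not pass without WT 3 (log2 fold change -0.20) or KO 3 (-0.25). When 1 library was left out, the number that rose was 3 without WT 1, WT 2, KO 2 or KO 3, and the number that fell was 3 without WT 1, WT 3, KO 2 or KO 3.

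Of 8 genes of CD36 palmitoylation and of caveolae, 1 rose and 2 fell (37.5% called, beside 25.8% of all rows). Their median log2 fold change was -0.09. Cavin1, encoding a caveolar coat protein, fell 1.81-fold, to 7.78 ± 0.329 CPM in KO, against 14.1 ± 0.994 CPM in WT. Zdhhc4 and Zdhhc5, the palmitoyltransferase genes that act on CD36, had 36.3 and 96.1 CPM in KO, against 33.4 and 84.4 CPM in WT, and did not pass. The thioesterase genes Lypla1 and Lypla2 were called lower and higher (log2 fold change -0.22 ± 0.07 and 0.21 ± 0.05). Lypla1 lost its call in 9 of 16 alternative settings, among them without WT 1, WT 2, WT 3, KO 2 or KO 3 (-0.23 to -0.18), and Lypla2 without WT 2 (0.21) or KO 3 (0.20). The number that rose was 0 without WT 2 or KO 3 and 2 without KO 1, and the number that fell was 1 without WT 1, WT 2 or KO 3. With robust dispersion 4 fell, and 1 fell with library size only, with no low-count filter, by the DESeq2 Wald test and with GC and length offsets.

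Of 9 tested genes for transcription factors known to act on Cd36, 1 rose and 2 fell (33.3% called, beside 25.8% of all rows). Pparg, encoding the best known of them, had 28.0, 35.6 and 31.3 CPM in KO, against 29.0, 27.6 and 23.3 CPM in WT, with overlap (log2 fold change 0.24 ± 0.11, edgeR adjusted p = 0.112). Like Cd36 it was highest in KO 2. Nr1h3, encoding LXRα, rose 1.41-fold. Cebpa, encoding C/EBPα, fell 1.56-fold, to 117 ± 3.42 CPM in KO, against 182 ± 2.45 CPM in WT (edgeR adjusted p = 2.28e-06), and Ppard fell 1.50-fold. The list's median log2 fold change was -0.01, and the number that rose was 2 without KO 1.

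Around Scarb1, 3 of 7 tested genes of cholesterol exchange with high-density lipoprotein rose and 0 fell (42.9% called, beside 25.8% of all rows). Their median log2 fold change was 0.15. Pltp, for phospholipid transfer protein, rose 1.37-fold, and Nceh1, for a cholesteryl ester hydrolase, 1.27-fold. The cholesterol efflux gene Abca1 rose by a log2 fold change of 0.32 ± 0.09, although the genotypes overlapped, and did not pass without WT 1 (0.28), WT 2 (0.29), KO 2 (0.23) or KO 3 (0.33). Around Scarb2, 1 of 6 tested genes of sphingolipid turnover rose and 2 fell (3 of 6 called, beside 25.8% of all rows). Their median log2 fold change was -0.01. Glb1, for lysosomal β-galactosidase, fell 1.66-fold, and Psap, for the saposin precursor, fell by 0.17 ± 0.03 on the log2 scale but did not pass without WT 2 (-0.15) or without both WT 2 and KO 1 (-0.12). Galc, for galactosylceramidase, rose by 0.19 ± 0.06 and lost that call in 8 of 16 alternative settings, among them without WT 1 (0.19), WT 2 (0.21), WT 3 (0.20), KO 1 (0.15) or KO 3 (0.23). The number of this list that rose was 0 without WT 1, WT 2, WT 3 or KO 3, and the number that fell was 1 without WT 2.

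Although Cd163 was near the detection limit, genes of a list drawn up around it reached high levels. The list holds genes of haem handling and also Hp, Adam10, Adam17 and Csnk2b, so its counts are not those of the haem pathway alone. Levels ranged from Hpx, for the haem carrier haemopexin, at 0.531 CPM in KO and 0.590 CPM in WT, up to Hmox1. Of 11 tested, 1 rose and 5 fell (54.5% called, beside 25.8% of all rows), with a median log2 fold change of -0.20. Hmox1, encoding the inducible haem oxygenase, had 1395, 1005 and 1139 CPM in KO, against 1657, 1638 and 1548 CPM in WT, and fell 1.37-fold (edgeR adjusted p = 0.00253). The constitutive isoform gene Hmox2 rose 1.27-fold. Blvrb, for biliverdin reductase B, fell 1.37-fold, and the haem transporter gene Slc48a1 1.20-fold. Adam17, for the protease that sheds CD163, fell 1.50-fold, to 212 ± 7.76 CPM in KO, against 319 ± 3.73 CPM in WT. Blvra fell by 0.24 ± 0.07 on the log2 scale, and did not pass without WT 1 (-0.21), WT 2 (-0.19) or KO 3 (-0.20), without both WT 2 and KO 1 (-0.23), nor with offsets for GC and length (-0.16).

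Of 12 regulators of myeloid receptor expression, 6 rose and 1 fell (58.3% called, beside 25.8% of all rows). Their median log2 fold change was 0.15. Maf, encoding a transcription factor of macrophages, rose 1.22-fold, with 125, 138 and 126 CPM in KO, against 100, 108 and 110 CPM in WT (edgeR adjusted p = 0.00356). Csf2ra, for the GM-CSF receptor α chain, rose 1.25-fold and Irf8 1.23-fold. Irf4, encoding an interferon regulatory factor used by dendritic cells, fell 1.40-fold, to 16.9 ± 1.56 CPM in KO, against 23.7 ± 1.18 CPM in WT.

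Some markers of other myeloid cells moved with genotype beside these receptor genes, which macrophages also express. The macrophage list of 12 genes summed to 2434 to 2830 CPM in KO and 2179 to 2363 CPM in WT, with KO 2 the highest library. Of its 9 tested genes 5 rose and 0 fell (55.6% called, beside 25.8% of all rows), among those that rose Fcgr1, C1qa, C1qb and C1qc. Fcgr1 had 158, 177 and 157 CPM in KO, against 22.5, 20.1 and 20.6 CPM in WT. That gap is wider than the gap between the lowest KO sum and the highest WT sum of the list. Its most abundant gene Csf1r had 1482 CPM in KO and 1446 CPM in WT and did not pass. Nor did Adgre1 (326 CPM in KO and 299 CPM in WT), Mrc1 (122 CPM in KO and 114 CPM in WT) or Mertk (57.9 CPM in KO and 64 CPM in WT). Timd4, Vsig4 and Clec4f, markers of resident macrophages, had at most 4 reads over the libraries of either genotype. The monocyte list of 8 summed to 376 to 466 CPM in KO and 280 to 303 CPM in WT. In it 5 of 7 tested genes were higher (71.4% called), and Fn1, Ccr2 and Ly6c2 were the most abundant. The conventional dendritic cell list of 12 summed to 5303 to 5972 CPM in KO and 5822 to 6000 CPM in WT. Here 4 genes were higher and 3 lower of 11 tested (63.6% called), and Cd74, Ccr7 and H2-Ab1 were the most abundant. The part of cell composition in the receptor differences was not tested.

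Of the lists for other cells, sums ran from 42.0 to 61.8 CPM in KO and 34.7 to 49.3 CPM in WT for 9 neutrophil genes (2 of 5 tested higher; S100a8, Ngp and S100a9 the most abundant, Elane near 0). For 7 mast cell and basophil genes they were 81.9 to 89.0 CPM in KO and 50.2 to 57.5 CPM in WT (4 of 5 higher; Kit, Gata2 and Prss34). For 6 plasmacytoid dendritic cell genes they were 314 to 327 CPM in KO and 129 to 160 CPM in WT (2 of 2 higher), nearly all of it the interferon-inducible Bst2, with Siglech and Klk1 near 0. Lymphocyte genes summed to at most 1.36 CPM in KO and 1.88 CPM in WT, with none tested. For 8 endothelial genes the sums were 182 to 235 CPM in KO and 321 to 401 CPM in WT, mostly Vwf, which fell, and Kdr, which rose, with Tek and Emcn near 0 and Cdh5 at 0.386 CPM in KO and 0.346 CPM in WT. Stromal and adipocyte genes summed to at most 1.32 CPM in KO and 6.51 CPM in WT (1 of 1 lower). Erythroid and platelet genes summed to 125 to 137 CPM in KO and 158 to 163 CPM in WT (1 higher and 1 lower of 3), mostly Pf4 and Ppbp. These calls stand beside 25.8% of all rows tested, and few genes of each list were tested.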

How the data were processed

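The authors deposited whole-number read counts for each gene symbol, not normalized. The submitters' processing notes name mm10 as build and list DESeq2, HTSeq, SAMtools, HISAT, HISAT2 and TopHat2. What each tool did, the annotation, use of strand and handling of multi-mapped reads: not given in the sources used here. Per the labels' protocols, RNA was harvested with Trizol. Nothing in the labels says that a genotype's libraries are separate animals or cultures. P-values therefore reflect only how far these libraries spread, and that spread may be technical. Rows were filtered with filterByExpr (minimum count 10), scaled with TMM factors and tested with edgeR 4.0.16 in R 4.3.3 (quasi-likelihood F test, genotype as the only term, Benjamini-Hochberg adjustment over 13249 rows). SEs are the absolute log2 fold change divided by the square root of F. For 23 repeated symbols the row with most reads kept the name. CPM use TMM-scaled library sizes, lengths and coordinates are from GENCODE M21, and CPM per kb divides by merged exon length. Numbered libraries did not deviate together, so no block was used. Alternatives used limma 3.58.1 and DESeq2 1.42.0 among others, and the offsets and the fit without WT 2 and KO 1 were added after seeing the data. The procedure was tested on 5 simulated tables with 200 changed genes each. Of genes changed 1.25-fold there, 26.8% were called, and on average 4.39% of calls were false. Fewer genes changed there than were called here, so these shares need not hold for the data. A small change that did not pass may thus have been missed. Members and lists were chosen with earlier results of these data known. Genes named were the 9 receptors, Epas1, up to 6 called genes of each list by lowest p, the 3 most abundant genes of each marker list and the 5 genes most like Cd36. Other genes named, among them Lrp1, Cd68, Zdhhc4, Zdhhc5, Pparg and single markers, were chosen after their values were seen. Some genes that the naming rule selects are not reported here.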

Additional observations from a re-analysis of the deposited data

How the results depend on the processing

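Cd36 kept its direction under all 16 alternatives, between 0.08 and 0.27 on the log2 scale. It passed with no low-count filter (0.20), without KO 1 (0.26), without both WT 2 and KO 1 (0.27) and with the GC and length offsets (0.26). Leaving out 1 library gave 0.08 to 0.26. The number of receptor genes called lower was 1 in place of 2 with no low-count filter, with the DESeq2 Wald test and without both WT 2 and KO 1. Leaving out 1 library gave 1 to 3 called higher and 1 to 2 called lower, and over all rows 1182 to 1992 called higher and 945 to 1622 called lower, against 1826 and 1586. Olr1, not called under any setting, turned to -0.02 without WT 2 and -0.005 without KO 2, with a range of -0.02 to 0.13 when 1 library was left out. The replicate number as a block gave 0.18 for Cd36 and 1741 rows higher and 1506 lower. Deviations of same-numbered libraries correlated at 0.015, -0.11 and 0.08. No pairing by number was seen, but with 3 libraries per genotype these values cannot settle whether the samples are paired. Under the block Galc (0.19, adjusted p = 0.055 by edgeR) was not called, so the number of Scarb2-related genes called higher was 0 in place of 1, and the block changed no other named call. That number was also 0 by the DESeq2 Wald test and 2 with library size only, and the number lower was 1 without both WT 2 and KO 1. Other scavenger receptors called lower were 2 in place of 1 with a minimum of 10 counts in all libraries of a genotype, limma-voom, robust dispersion and the offsets. Genes of palmitoylation and of Cd36 regulators called higher were 2 in place of 1 with no low-count filter and without both WT 2 and KO 1. Of 672 values of 42 other named genes, 618 kept their call and none changed direction. Scaling to library size only moved calls to 2137 higher and 1292 lower. Marco, Colec12 and Cd163 are limited by depth.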
